A study of Mus musculus with 25 samples.

Results

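The Hist genes are the mouse genes that encode the replication-dependent histones, and they were taken here as every gene whose symbol begins with Hist1h, Hist2h, Hist3h or Hist4h. The deposited table of sperm RNA held 68 of them among 24358 genes, and the estimate was marked as successful for all 68 in all 5 conditions. They divide into 6 genes for H1, 18 for H2A, 19 for H2B, 12 for H3 and 13 for H4. By the number in the symbol, 54 belong to Hist1 on chromosome 13, 10 to Hist2 on chromosome 3, 3 to Hist3 on chromosome 11 and 1, Hist4h4, lies alone on chromosome 6. Of the 68 genes, 5 were at 0 in all conditions, 14 never exceeded 3 counts, 35 reached at least 10 counts in 1 condition and 9 reached 100.

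The core histones H2A, H2B, H3 and H4 form the protein spool that DNA winds around, and H1 binds the DNA between the spools. Replication-dependent histone genes are mainly transcribed while a cell copies its DNA, and most of their mRNAs have no introns and end in a short stem-loop, bound by the protein SLBP, in place of a poly(A) tail. In male germ cells the testis variants H1t (Hist1h1t), TH2A (Hist1h2aa) and TH2B (Hist1h2ba) replace part of the usual histones, and spermatids then exchange most histones for transition proteins and finally for protamines.

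The study asked how prenatal exposure to the phthalate DEHP acts on the sperm RNA of a susceptible mouse strain and a resistant one. Pregnant mice were dosed by mouth with DEHP, which is bis(2-ethylhexyl)phthalate, at 300 mg/kg/day (D300) or with corn oil alone (CTL) from embryonic day 9 to embryonic day 19. Sperm was taken from the cauda epididymis of male offspring aged 14 weeks per the labels, and its total RNA was depleted of ribosomal RNA, fragmented and made into strand-specific libraries without selecting poly(A) tails, which the study calls all-RNA-seq. The conditions were C57.CTL.F1 and C57.D300.F1 (C57BL/6J, first generation, vehicle or DEHP), C57.D300.F2 (C57BL/6J, the second generation, sired by prenatally exposed males of the first and not itself dosed), and FVB.CTL.F1 and FVB.D300.F1 (FVB/N, first generation, vehicle or DEHP), with 5 libraries each. No vehicle condition of the second generation was analysed here. The labels mark the 10 first-generation C57BL/6J libraries as re-analysed and the other 15 not, so a difference between these and the rest cannot be told apart from the set of libraries.

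For each gene and condition the table gives 1 estimated fragment count that combines the 5 libraries, scaled between libraries but not divided by gene length, and a variance of that count under the model of the counting program. The 5 libraries of a condition were not analysed one by one, so neither a test nor a spread over libraries could be computed, and every difference below is a description. The ± after a count is 1 SD under that model. Log2 ratios were taken after adding 1 to each count, over genes for which either condition reached 10 counts. Differences of at least 2 log2 units and of at least 1 log2 unit were counted. The share of all genes beyond the same size is given beside each count of Hist genes as its background. The background of a comparison also applies to the related genes and markers counted in it. Counts of Hist genes under another scaling, pseudocount or minimum have no such share.

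In total the counts summed to between 6921700 and 8602900 per condition, of which the Hist genes made up 0.0406% in the C57BL/6J vehicle condition, 0.0342% and 0.0326% in the exposed first and the second generation, 0.0267% in FVB/N under vehicle and 0.0244% in FVB/N under exposure. The sperm label was checked against markers of testicular germ cells, whose 18 genes summed to 98839, 83425, 33945, 8506.5 and 10196 counts in the same order of conditions, with all 18 above 0 in every condition. Markers of other tissues were present too. The 12 liver markers summed to 255350 and 208990 counts in both re-analysed conditions and to between 951 and 5421 in the other conditions. The 8 seminal vesicle markers summed to 243560 counts in C57.CTL.F1 and to between 1150.5 and 2525 elsewhere, and 13 epididymal markers to 94247 counts in FVB.D300.F1 and to between 24306 and 37560 elsewhere. As the samples are bulk RNA, fewer cells of a type and less RNA per cell cannot be told apart.

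The stem-loop is the sequence that sets most of these mRNAs apart from other mRNAs, and it is shown here for members of each class whose counts the results turn on. It was searched for in the GENCODE M21 transcripts (GRCm38, the same assembly as mm10) as a stem of 6 base pairs starting with GG and a loop of 4 bases starting with T, within 120 bases after the stop codon. A match was found in 46 of the 51 Hist genes with a coding transcript that goes at least 40 bases past the stop codon (90.2%), against 26 of 20714 other genes (0.126%). The lines below give the sense strand 5′ to 3′ with the stem-loop in capitals and up to 5 flanking bases on each side in lower case. On mm10 they lie on the plus strand at chr13:23739507-23739532 (Hist1h1c), chr13:23696520-23696545 (Hist1h1t), chr13:23581945-23581970 (Hist1h4d) and chr13:23531453-23531478 (Hist1h4h), and on the minus strand at chr3:96220413-96220438 (Hist2h2ac), chr13:23585526-23585551 (Hist1h2be), chr13:23561898-23561923 (Hist1h3e), chr13:22040961-22040986 (Hist1h4i) and chr6:136803993-136804018 (Hist4h4).
Hist1h1c: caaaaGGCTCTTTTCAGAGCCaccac
Hist1h1t: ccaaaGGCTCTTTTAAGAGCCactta
Hist2h2ac: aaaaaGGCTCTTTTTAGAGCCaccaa
Hist1h2be: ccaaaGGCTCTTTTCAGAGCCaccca
Hist1h3e: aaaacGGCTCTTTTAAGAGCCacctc
Hist1h4d: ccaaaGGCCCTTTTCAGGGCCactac
Hist1h4h: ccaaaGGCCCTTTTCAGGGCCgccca
Hist1h4i: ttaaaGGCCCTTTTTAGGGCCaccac
Hist4h4: acaaaGGCCCTTTTCAGGGCCcacaa
The form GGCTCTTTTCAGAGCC was shared by 25 genes of H1, H2A, H2B and H3 and by no H4 gene, and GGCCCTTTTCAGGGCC by 7 genes, all of H4. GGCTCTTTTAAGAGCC was found in 6 genes, among them the testis H1 gene Hist1h1t and Hist1h3c, Hist1h3e and Hist1h3f. Hist1h2bc, the Hist gene with the highest count, has a spliced transcript model, and no match was found in it.

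The counts were unevenly spread over the 68 genes. Genes that share most of their sequence with other annotated genes held few counts. Of these, 10 genes had under 10% of their 30-base words unique among all annotated transcripts, and 1 of them, Hist1h4m, reached 10 counts. The shared words need not lie in a paralog, as Hist2h3c1 shares 100% of them with Gm20634, which overlaps it on the same strand. Of the 28 genes with at least 50% unique words, 21 reached 10 counts, and these 28 held 79.9% of the Hist counts averaged over the conditions. The 5 genes at 0 throughout were Hist1h2ao, Hist1h2ap, Hist1h4n, Hist2h3c1 and Hist2h3c2, with between 0% and 35.7% unique words. How the counting program divided reads among near-identical genes is not given in the sources used here, so single values of the genes with few unique words are uncertain, and sums over a class keep such reads together as far as they lie within the class.

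**Figure D1:**
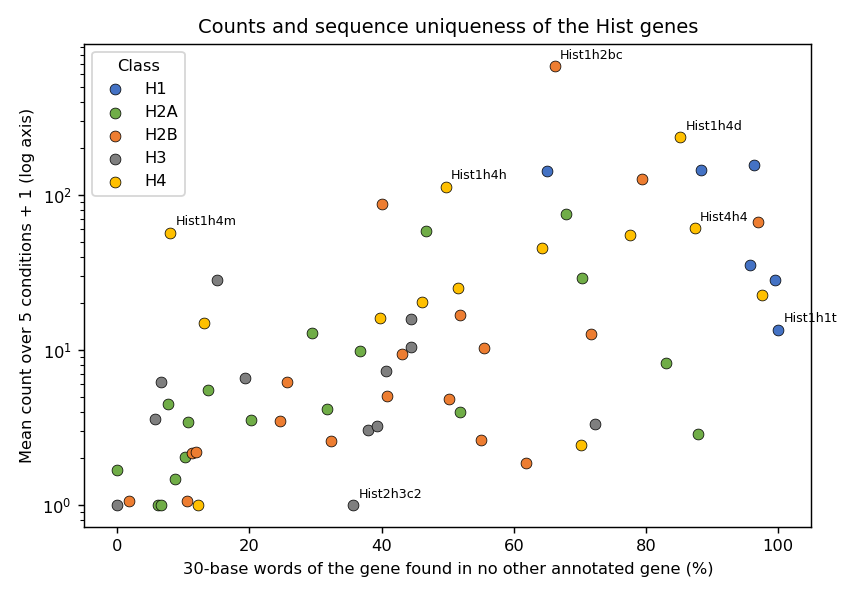
Each point is 1 of the 68 Hist genes, coloured by histone class, with the share of its 30-base words found in no other annotated gene on the horizontal axis (percent) and its mean count over the 5 conditions plus 1 on the vertical log axis. Hist1h4m, with 8.04% unique words and a mean of 56.1 counts, stands above the other genes under 10%, and Hist1h2bc is highest with a mean of 680 counts.

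The linker histone class H1 was led by 3 genes. Hist1h1c (chr13:23738808-23740367, plus strand), which encodes H1.2, had 149 ± 37.6, 134 ± 33.9, 139.8 ± 35.4, 152 ± 37.7 and 149 ± 37.9 counts in the 5 conditions, listed as the C57BL/6J vehicle, exposed and second-generation conditions and then the FVB/N vehicle and exposed conditions, the order used for every list of 5 values. These 5 values lay within 1 model SD of each other. Hist1h1d, which encodes H1.3, had 216, 186, 132, 105 and 138 counts, highest in C57.CTL.F1 and lowest in FVB.CTL.F1, with model SDs between 27.7 and 52.7. Hist1h1e, which encodes H1.4, had 162, 169, 149, 109 and 123 counts, and was lower in both FVB/N conditions than in the 3 of C57BL/6J. Summed over its 6 genes, H1 had 601, 586, 508, 416 and 472 counts, or between 17.2% and 23.4% of the Hist counts.

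Among the H2A genes, 6 of 18 reached 10 counts, and the 3 with the highest means lay outside the large Hist1 group. Hist3h2a (chr11:58954685-58956830, plus strand) had 77.8, 69.2, 61.1, 82.0 and 81.4 counts. This gene overlaps Trim17 on the same strand in the annotation, so its reads may include reads of Trim17. Hist2h2ac had 79.1, 69.5, 55.9, 43.0 and 42.1 counts, with both FVB/N values under all 3 C57BL/6J values. Hist2h2ab, its neighbour on chromosome 3, had 21.9, 29.2, 27.9, 24.2 and 37.7 counts, highest in FVB.D300.F1. Both H2A genes Hist2h2aa1 and Hist2h2aa2, which have 10.2% and 0% unique words, stayed at or below 1.84 counts.

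H2B held the largest share of the Hist counts in every condition, between 34.9% and 44.1%, and was led by a single gene. Hist1h2bc (chr13:23684199-23692908, plus strand) had 1246 ± 359, 811 ± 208, 608 ± 145, 385 ± 108 and 348 ± 82.1 counts. It was highest in C57.CTL.F1 and lowest in both FVB/N conditions, and made up 35.6%, 30.6%, 26.9%, 19.1% and 17.2% of all Hist counts. Hist1h2be (chr13:23583670-23621124, minus strand) ran the other way, with 81.8 ± 22.7, 89.1 ± 24.3, 124 ± 31.7, 185 ± 44.8 and 149 ± 37.6 counts. Its annotated span overlaps Hist1h1e on the same strand. Hist2h2bb had 62.2 ± 18.2, 71.4 ± 20.3, 64.7 ± 18.8, 113 ± 29.7 and 124 ± 32.0 counts, so that both FVB/N values lay above all 3 of C57BL/6J. It overlaps the annotated gene Gm42743 on the same strand. Hist2h2be had 73.2, 64.7, 91.5, 54.4 and 44.3 counts, highest in C57.D300.F2 and lowest in FVB.D300.F1. The Hist3 genes Hist3h2ba and the pseudogene Hist3h2bb-ps did not exceed 3.03 counts.

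H3 was the smallest class, with 101, 92.3, 65.4, 74.0 and 57.1 counts over 12 genes, or between 2.83% and 3.67% of the Hist counts. Hist1h3e had 28.8, 29.9, 19.3, 33.4 and 25.4 counts, with model SDs between 7.65 and 11.5. Hist1h3f had 21.6, 17.9, 10.4, 12.7 and 11.9 counts and Hist1h3c 12.1, 14.1, 7.13, 10.7 and 3.55. Hist2h3b had 10.8, 6.78, 4.81, 2.89 and 2.53 counts. All of these H3 genes had under 50% unique words.

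H4 showed opposite patterns within the class. Hist1h4d (chr13:23581598-23582735, plus strand) had 493 ± 133, 211 ± 51.0, 188 ± 45.4, 142 ± 36.1 and 141 ± 38.8 counts, and Hist1h4h (chr13:23531050-23531519, plus strand) 218 ± 57.6, 129 ± 32.9, 83.6 ± 23.0, 61.5 ± 17.97 and 69.7 ± 20.7. Both were highest in C57.CTL.F1 and lower in each of the other 4 conditions by more than 1 model SD of the difference. In contrast, Hist4h4 (chr6:136801553-136804415, minus strand) had 35.8 ± 11.9, 32.9 ± 11.1, 25.9 ± 9.33, 91.9 ± 25.2 and 113 ± 29.8 counts, so that its FVB/N values were above its C57BL/6J values without overlap of the model SDs. Hist1h4i (chr13:22040636-22041362, minus strand) behaved alike with 27.3 ± 9.64, 23.3 ± 8.72, 30.8 ± 10.7, 62.6 ± 18.3 and 79.7 ± 22.9 counts.

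Hist1h4m (chr13:21811746-21812147, plus strand) had 60.3 ± 17.8, 26.8 ± 9.88, 25.1 ± 9.75, 77.8 ± 23.0 and 90.4 ± 26.5 counts. It was low in C57.D300.F1 and C57.D300.F2 and higher in C57.CTL.F1 and in FVB/N. Its near copy Hist1h4n was at 0 in every condition. Hist1h4c had 70.6, 89.3, 51.9, 29.2 and 30.4 counts, with both FVB/N values lowest. Hist2h4 had 15.7, 25.2, 26.4, 23.4 and 17.3 counts, with model SDs between 6.48 and 9.49. Divided by the annotated exon length of GENCODE M21, Hist1h4d had 433 counts per kb and Hist1h4h 464 counts per kb in C57.CTL.F1, below the 1078 counts per kb of Hist1h2bc. With the RefSeq length of 402 bases in place of 1138, Hist1h4d came to 1225 counts per kb. Hist1h4h, with 435 bases in place of 470, came to 501. The order of Hist1h4d and Hist1h4h per length therefore depends on the transcript model, which is not given in the sources used here. No value by RefSeq length was computed for Hist1h2bc, so it was not compared with them on that basis.

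**Figure D2:**
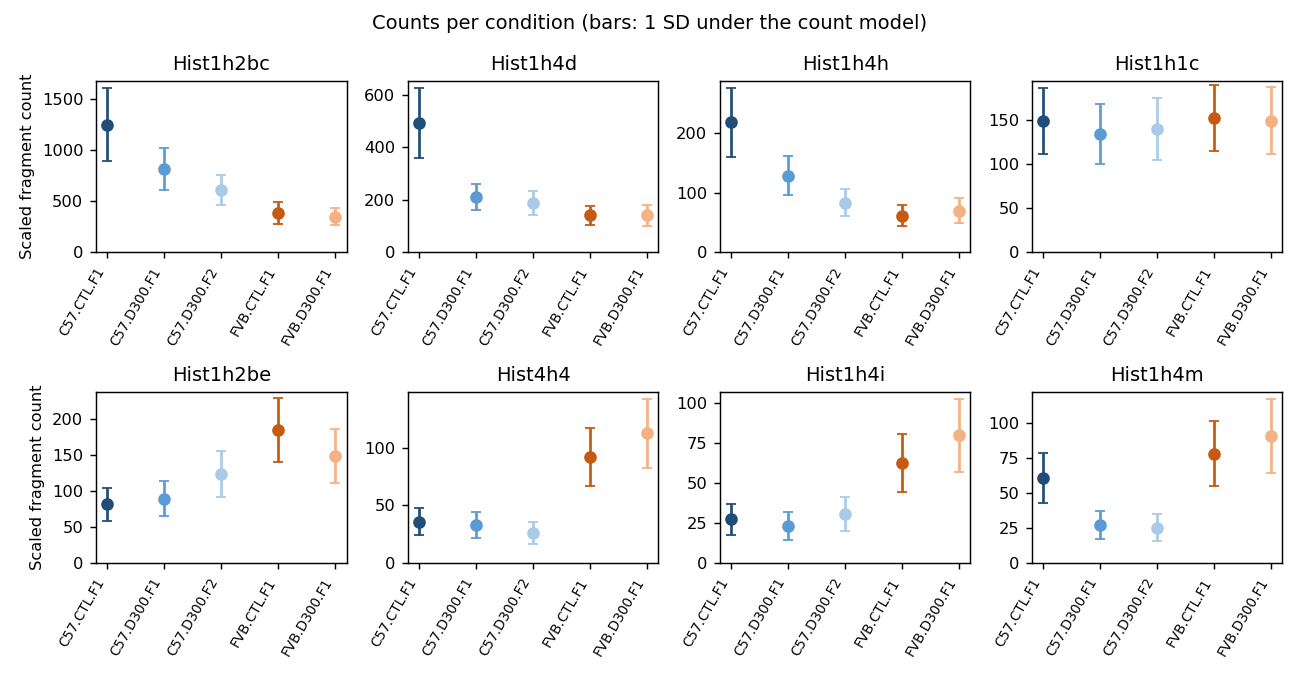
Scaled fragment counts of 8 Hist genes in the 5 conditions, 1 value per condition combining 5 libraries, with bars of 1 SD under the count model and each vertical axis starting at 0. Hist1h2bc, Hist1h4d and Hist1h4h are highest in C57.CTL.F1, Hist1h1c is level between 134 and 152 counts, and Hist4h4 and Hist1h4i are higher in both FVB/N conditions.

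The promoters of 5 H4 genes are shown because these genes encode the same class of histone and their counts differed in opposite directions between the strains. Of these, Hist1h4d and Hist1h4h differed by 1 log2 unit between the strains under vehicle only, and Hist1h4m under exposure only. Hist1h4a and Hist1h4c were lower in FVB/N by 1 log2 unit under both, and their promoters are not shown. The promoters below are the 150 bases before the RefSeq start on GRCm38.p6, sense strand 5′ to 3′, in lower case. This is the C57BL/6J reference, to which the reads of both strains were mapped, and the FVB/N sequence was not examined. Capitals mark matches on either strand to the TATA box TATAAA, to the CCAAT box, to the octamer ATTTGCAT bound by Oct factors and to the hexamer GGTCCG of H4 promoters. Their positions are chr13:23581418-23581567 for Hist1h4d, chr13:23530894-23531043 for Hist1h4h, chr13:22041363-22041512 for Hist1h4i, chr13:21811596-21811745 for Hist1h4m and chr6:136804432-136804581 for Hist4h4.
Hist1h4d: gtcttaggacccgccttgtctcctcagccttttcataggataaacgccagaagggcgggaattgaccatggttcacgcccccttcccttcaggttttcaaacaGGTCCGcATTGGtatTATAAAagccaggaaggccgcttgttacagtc
Hist1h4h: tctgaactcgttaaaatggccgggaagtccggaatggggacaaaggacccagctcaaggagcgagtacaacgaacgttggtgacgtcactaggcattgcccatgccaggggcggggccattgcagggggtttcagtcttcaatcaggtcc
Hist1h4i: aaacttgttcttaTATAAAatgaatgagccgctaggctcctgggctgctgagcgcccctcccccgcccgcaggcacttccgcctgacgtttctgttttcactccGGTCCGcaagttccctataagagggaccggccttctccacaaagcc
Hist1h4m: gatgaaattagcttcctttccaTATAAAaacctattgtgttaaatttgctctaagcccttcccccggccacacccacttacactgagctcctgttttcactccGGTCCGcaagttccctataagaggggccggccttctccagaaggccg
Hist4h4: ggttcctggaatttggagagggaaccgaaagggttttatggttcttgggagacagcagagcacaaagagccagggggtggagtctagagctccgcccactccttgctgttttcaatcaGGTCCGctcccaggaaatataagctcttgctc
The hexamer GGTCCG was present in 9 of 12 H4 promoters (75%) and in 4.42% of 32851 RefSeq promoters of the same length. The window of Hist1h4h held no full match to any of the 4 motifs. However, it ends in ggtcc, within a run of 13 bases shared with Hist4h4. A hexamer across the edge of the window would not have been counted. Hist1h4i and Hist1h4m shared an unbroken run of 38 bases around this hexamer, and Hist1h4m and Hist1h4n one of 149 bases. CCAAT was present in 52 of 63 promoters of 62 Hist genes (82.5%) against 24.5% of all promoters, including every promoter of H1, H2A and H2B but 3 of the 12 of H4. The octamer was present in 6 of 17 H2B promoters (35.3%) and 5 of 18 H2A promoters (27.8%) against 0.998% of all, and the TATA box in 24 of the 63 (38.1%) against 7.57%. These matches are letters in a window and no binding was measured.

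The testis variants were detected at low counts. Hist1h1t (chr13:23695814-23696725, plus strand) had 17.6 ± 7.10, 19.3 ± 7.75, 12.3 ± 5.77, 7.01 ± 3.74 and 6.33 ± 3.61 counts. Hist1h2ba (chr13:23933773-23934156, minus strand) had 11.4 ± 5.196, 14.2 ± 6.48, 9.54 ± 4.88, 7.10 ± 4.00 and 3.99 ± 2.66 counts. Hist1h2aa (chr13:23934462-23934851, plus strand) had 1.89, 1.70, 4.58, 0 and 1.22 counts, so that only its value in C57.D300.F2 exceeded the limit of 3 counts. For the first and the second of these genes both FVB/N values lay under the 3 C57BL/6J values. Together the 3 genes held between 0.571% and 1.33% of the Hist counts. TH2A and TH2B are read from opposite strands of 1 intergenic region, and their promoter windows, chr13:23934287-23934436 and chr13:23934157-23934306, are shown for that reason with the same capitals.
Hist1h2aa: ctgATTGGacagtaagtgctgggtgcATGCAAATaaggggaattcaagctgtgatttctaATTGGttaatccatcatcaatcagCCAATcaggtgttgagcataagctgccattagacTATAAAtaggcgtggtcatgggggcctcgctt
Hist1h2ba: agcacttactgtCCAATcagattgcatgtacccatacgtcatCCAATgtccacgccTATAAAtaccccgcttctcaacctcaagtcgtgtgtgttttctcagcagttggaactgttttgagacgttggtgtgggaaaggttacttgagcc
Both windows held TATAAA and CCAAT, and the 2 windows overlap at their upstream ends.

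The first comparison was exposure within C57BL/6J, where summed Hist counts were 3497 under vehicle and 2652 under exposure. Of 35 Hist genes with at least 10 counts, 0 differed by 2 log2 units (background 0.291%), 0 were higher by 1 log2 unit (background 1.09%) and 2 were lower by 1 log2 unit (background 1.15%). The lower genes were Hist1h4d, with a log2 ratio of -1.22, and Hist1h4m, with -1.14. Their differences of 282 and 33.4 counts exceeded the model SDs of the difference, 142 and 20.4. Hist1h4a (-0.78), Hist1h4h (-0.76) and Hist1h2bc (-0.62) also differed by more than that SD and were named for it after their values were seen. The highest ratios among genes with at least 50 counts were those of Hist1h4c (0.34) and Hist2h2bb (0.20), both within the model SD.

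Over these 35 genes the median log2 ratio was -0.12, with 17 higher and 18 lower, beside a median of -0.01 over 16825 genes. The direction of this median depended on the scaling, as it was 0.08 with equal total counts, where the median over all genes was 0.10, and 0.12 over the Hist genes with at least 50% unique words. By class, the log2 ratio of summed counts was -0.72 for H4, -0.45 for H2B and -0.13 for H3. It was -0.04 for H1 and -0.04 for H2A, and these last values became 0.08 and 0.07 with equal total counts. Without Hist1h2bc, Hist1h4d and Hist1h4h, chosen after their values were seen, the Hist sum was 1541 and 1502 counts. The seminal vesicle markers were lower in C57.D300.F1 by at least 1 log2 unit for 8 of 8 genes, with a median of -10.73, and the liver markers for 2 of 12, with a median of -0.46. Smooth muscle and connective tissue markers had a median of -0.68, but their sum was 41099 under vehicle and 42672 under exposure. Testicular germ cell markers had a median of -0.08. The part of these tissues in the Hist values was not tested.

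For exposure within FVB/N, summed Hist counts were 2018 under vehicle and 2021 under exposure, and the median over 27 genes was -0.03, beside 0.00 over 16471 genes. Of the 27 genes, 0 differed by 2 log2 units (background 0.68%), 0 were higher by 1 log2 unit (background 2.16%) and 1 was lower (background 0.619%). This was Hist1h3c, with 10.7 and 3.55 counts and a log2 ratio of -1.36, which became -0.61 with 10 in place of 1 added to each count. Hist1h3c was also the 1 gene whose difference exceeded its model SD. Among genes with at least 50 counts, the lowest ratios were those of Hist1h2be (-0.31) and Hist2h2be (-0.29) and the highest those of Hist1h1d (0.40) and Hist1h4i (0.34). The epididymal markers were higher by at least 1 log2 unit for 12 of 13 genes in this comparison, with a median of 6.32, and their part in the Hist values was not tested.

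The effect of exposure was compared between the strains as the log2 ratio in FVB/N minus that in C57BL/6J. Over 35 Hist genes its median was 0.11, beside 0.03 over 17556 genes. It was at least 1 for 3 Hist genes (4.45% of all genes) and at most -1 for 2 (2.92% of all genes). Hist1h4d (1.21), Hist1h4m (1.35) and Hist1h2bg (1.51) were above, and Hist1h3c (-1.56) and Hist2h4 (-1.07) below. For no Hist gene did the 2 strains differ in direction with each difference larger than its model SD.

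In the second generation of the exposed C57BL/6J lineage the Hist genes summed to 2256 counts. Against C57.CTL.F1, 0 of 34 genes differed by 2 log2 units (background 4.19%), 0 were higher by 1 log2 unit (background 4.1%) and 5 were lower (background 10.2%). Those were Hist1h4d (-1.38), Hist1h4h (-1.37), Hist1h4m (-1.23), Hist1h2bc (-1.03) and Hist2h3b (-1.02), each by more than the model SD of the difference. Hist1h2be (0.59) and Hist2h2be (0.32) had the highest ratios among genes with at least 50 counts, and the former exceeded its model SD.

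The median of the 34 genes against C57.CTL.F1 was -0.25, with 11 higher and 23 lower, beside -0.04 over all genes. With equal total counts it was 0.05, with 19 higher and 15 lower, and the median over all genes was then 0.26, so that the Hist genes lay 0.20 under the median of all genes in place of 0.21. With the upper quartile 16 were higher and 17 lower. With equal total counts 1 gene was higher by 1 log2 unit and 2 were lower, and the share of all genes under that scaling is not given here. The sums of H1 and H2A, with log2 ratios of -0.24 and -0.23, became 0.05 and 0.06 with equal total counts. The sums of H4 (-0.97), H2B (-0.68) and H3 (-0.63) stayed below 0 under every scaling. Over single genes the median was -0.44 for H4 (7 of 11 lower), -0.01 for H2B (4 of 8) and -0.84 for H3 (4 of 4). Within H2B, Hist1h2bc alone went from 1246 to 608 counts. Without Hist1h4d and Hist1h4h, chosen after their values were seen, H4 had 303 and 245 counts. Testicular germ cell markers (median -1.01, 10 of 18 lower by 1 log2 unit) were lower in the same comparison. Lower too were those of liver (median -5.69, 12 of 12) and seminal vesicle (median -8.91, 8 of 8). Smooth muscle and connective tissue markers had a median of -0.79 (3 of 8 lower by 1 log2 unit). However, the sum of these muscle and connective tissue markers was 41099 under vehicle and 44387 for the second generation. Prostate markers were higher (median 2.69, 3 of 3). Their part in the Hist values was not tested.

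Against C57.D300.F1, which is the first generation of the same lineage, 0 of 33 Hist genes differed by 2 log2 units (background 3.64%), 0 were higher by 1 log2 unit (background 2.69%) and 0 were lower (background 8.35%). The lowest ratios among genes with at least 50 counts were those of Hist1h4c (-0.77) and Hist1h4h (-0.62), both beyond the model SD, and the highest those of Hist2h2be (0.49) and Hist1h2be (0.47). The median was -0.16, with 10 higher and 23 lower, beside -0.05 over all genes. With equal total counts the median was 0.02, with 17 higher and 16 lower, and with the upper quartile it was 0.02 as well, with 19 and 14. This comparison and the previous one share C57.D300.F2, and the liver markers were again lower for 12 of 12 genes, with a median of -5.22. Germ cell markers were lower for 7 of 18 genes (median -0.95), and those of seminal vesicle (median 1.83, 6 of 8) and prostate (median 2.34, 3 of 3) were higher. Their part in the Hist values was not tested.

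**Figure D3:**
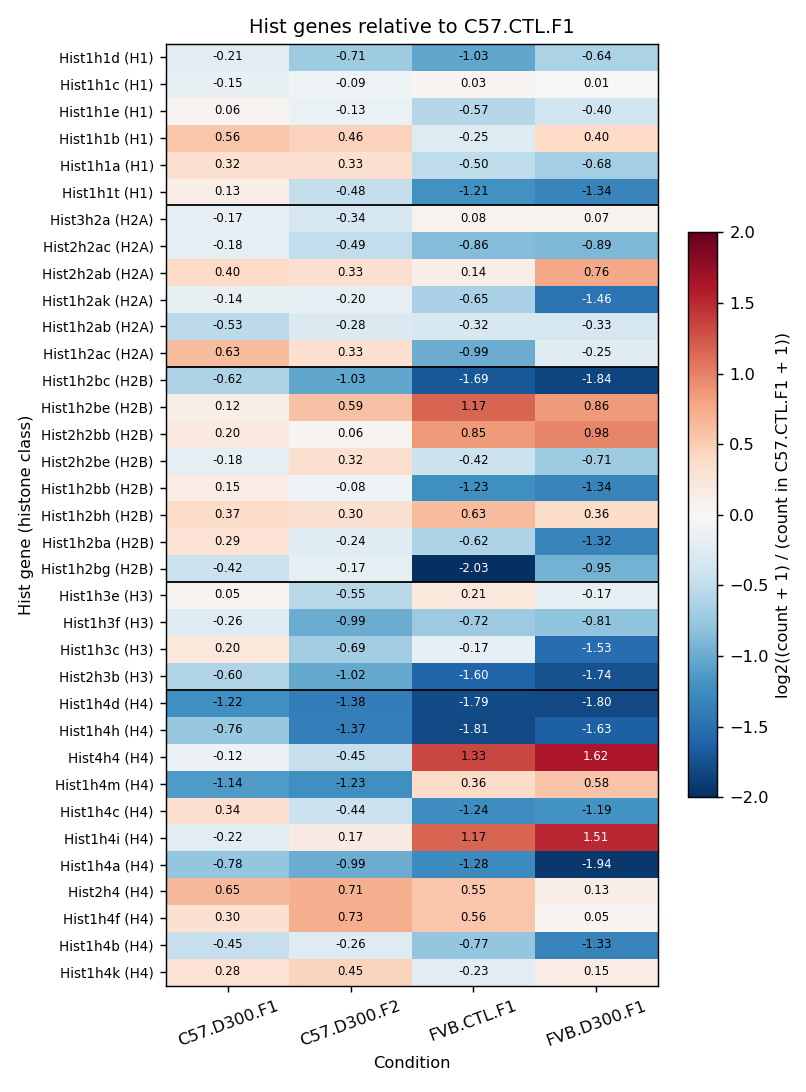
Log2 ratio of (count + 1) in each of 4 conditions (columns) to that in C57.CTL.F1 for the 35 Hist genes with at least 10 counts in 1 condition (rows, grouped by class and ordered by mean count), red for higher and blue for lower. All 4 columns share C57.CTL.F1, whose own error is therefore in each. Hist1h4d, Hist1h4h and Hist1h2bc are blue in every column, and Hist4h4 and Hist1h4i are red in both FVB/N columns, at 1.33 and 1.17 in FVB.CTL.F1.

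Between the strains, FVB/N had the lower Hist sum at either exposure, with log2 ratios of -0.79 under vehicle and -0.39 under exposure. Without Hist1h2bc, Hist1h4d and Hist1h4h the sums were 1541 in C57BL/6J and 1429 in FVB/N under vehicle and 1502 and 1462 under exposure, with ratios of -0.11 and -0.04. Under vehicle, FVB.CTL.F1 against C57.CTL.F1, 1 of 34 Hist genes differed by 2 log2 units (background 10.3%). This was Hist1h2bg, which had 12.9 and 2.40 counts in C57.CTL.F1 and FVB.CTL.F1 and a log2 ratio of -2.03, or -0.88 with 10 added. By 1 log2 unit 3 genes were higher in FVB/N (background 7.5%) and 10 were lower (background 18.8%). The higher ones were Hist4h4 (1.33), Hist1h2be (1.17) and Hist1h4i (1.17), and among the lower ones were Hist1h4h (-1.81), Hist1h4d (-1.79), Hist1h2bc (-1.69), Hist1h4c (-1.24), Hist1h1t (-1.21) and Hist1h1d (-1.03). The median was -0.46, beside -0.03 over all genes.

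Under exposure, FVB.D300.F1 against C57.D300.F1, 0 of 32 genes differed by 2 log2 units (background 10.3%). By 1 log2 unit 3 were higher (background 12%), namely Hist4h4 (1.75), Hist1h4i (1.73) and Hist1h4m (1.72). By the same size 9 were lower (background 19.9%), among them Hist1h2ba (-1.60), Hist1h4c (-1.53), Hist1h1t (-1.47) and Hist1h2bc (-1.22). The median was -0.53, beside -0.07 over all genes. The H4 sum differed little, with 614 and 591 counts in C57.D300.F1 and FVB.D300.F1 and a log2 ratio of -0.05, which became 0.10 with the upper quartile. Within it, Hist1h4d and Hist1h4h together held 12.8% of the Hist counts in C57.D300.F1 and 10.4% in FVB.D300.F1, and Hist4h4, Hist1h4i and Hist1h4m together held 3.13% and 14.0%.

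Both strain comparisons set re-analysed libraries of C57BL/6J beside newly made ones of FVB/N. FVB.D300.F1 against C57.D300.F2 sets newly made libraries side by side but differs in generation as well as strain. There, 1 of 30 Hist genes differed by 2 log2 units (background 3.6%), 3 were higher by 1 log2 unit (background 6.98%) and 5 were lower (background 10.6%). Hist4h4 had a log2 ratio of 2.08, Hist1h4m one of 1.81 and Hist1h4i one of 1.34, and each exceeded its model SD. The lower genes were Hist1h2ak (-1.26), Hist1h2bb (-1.26), Hist1h4b (-1.07), Hist2h2be (-1.03) and Hist1h1a (-1.005). Hist1h2bc had a ratio of -0.80. The median was -0.29, with 12 higher and 18 lower, and with equal total counts it was -0.54, with 9 higher and 23 lower. It was 0.08 over the Hist genes with at least 100 counts.

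Between the strains the markers of other cell types differed as well. Between the vehicle conditions, testicular germ cell markers had a median of -2.75 (15 of 18 lower by 1 log2 unit), liver markers one of -7.74 (12 of 12), seminal vesicle markers one of -9.62 (8 of 8) and leukocyte markers one of -1.14 (7 of 10). In FVB.D300.F1 against C57.D300.F2, which shares no re-analysed library, they were -1.29 (12 of 18) for germ cells, -2.59 (11 of 12) for liver and -0.91 (2 of 9) for leukocytes. The epididymal markers had a median of 7.21 (12 of 13 higher) in that comparison, 0.31 (0 of 8 higher) under vehicle and 6.91 (11 of 13 higher) in FVB.D300.F1 against C57.D300.F1. In the last of these, germ cell markers had a median of -2.17 (16 of 18 lower) and liver markers one of -7.72 (12 of 12 lower). The part of these tissues in the Hist values was not tested.

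**Figure D4:**
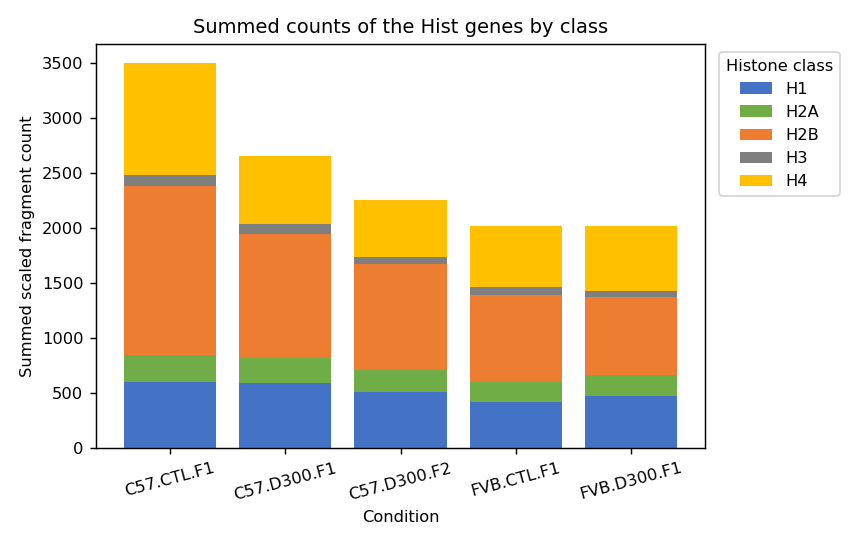
Summed scaled fragment counts of the Hist genes in each of the 5 conditions, stacked by histone class, with the vertical axis from 0. The sum is 3497 in C57.CTL.F1 and between 2018 and 2652 in the other conditions, and the H2B and H4 parts are largest in C57.CTL.F1.

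By position, the 31 Hist1 genes within chr13:23531050-23934851, from Hist1h4h to Hist1h2aa, had 2932, 2107, 1728, 1373 and 1315 counts, or between 65.0% and 83.8% of all Hist counts. The 23 Hist1 genes within chr13:21715763-22043676, of which 5 reached 10 counts, had 185, 169.7, 163, 207 and 243 counts. Hist1h4i and Hist1h4m lie in the latter. The sum of Hist2, on chromosome 3, was level with 264, 269, 274, 263 and 268 counts. Its genes were not all level, as Hist2h2ac was lower and Hist2h2bb higher in both FVB/N conditions than in those of C57BL/6J. Hist3 was level too, with 80.6, 73.8, 64.7, 82.4 and 82.5 counts. The share of Hist1 was therefore 89.1% in C57BL/6J under vehicle and 77.1% in FVB/N under exposure.

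The testis variants were compared with the other Hist genes in each comparison where Hist1h1t, Hist1h2ba or both reached 10 counts. Under exposure in C57BL/6J they had log2 ratios of 0.13 and 0.29, and their median lay 0.35 above that of the other Hist genes. In C57.D300.F2 they had -0.48 and -0.24 against C57.CTL.F1 and -0.61 and -0.53 against C57.D300.F1, and the difference of their median from that of the others was -0.13 and -0.43. With summed counts in place of medians the former turned to 0.41. Between the strains they had -1.21 and -0.62 under vehicle and -1.47 and -1.60 under exposure, with differences from the others of -0.54 and -1.05. In FVB.D300.F1 against C57.D300.F2 Hist1h1t alone could be compared, at -0.86, and in FVB/N under exposure neither reached 10 counts. Adding 10 in place of 1 moved the strain differences to -0.23 under vehicle and -0.43 under exposure, so their size rests on few counts.

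Of the 9 testis and oocyte histone genes outside the Hist groups in the table, 4 reached 10 counts and the other 5 had mean counts of at most 1.76. H1fnt, the spermatid linker histone also called H1T2, had 276, 224, 96.0, 28.4 and 37.0 counts. Hils1, a spermatid H1-like gene, had 121, 138, 78.8, 22.3 and 30.2 counts, and H2afb1, a short H2A variant of spermatids, 71.1, 64.1, 32.4, 7.10 and 15.7. Under exposure in C57BL/6J the 4 genes had a median log2 ratio of 0.02, and 0 of 4 differed by 1 log2 unit. Under exposure in FVB/N the median of 3 genes was 0.42, and H2afb1 alone was higher by 1 log2 unit (background 2.16%). In C57.D300.F2, 3 of 4 were lower against C57.CTL.F1 (background 10.2%) and 2 of 4 against C57.D300.F1 (background 8.35%). All 4 were lower by 1 log2 unit in FVB/N under vehicle (background 18.8%) and under exposure (background 19.9%). The transition proteins and protamines that replace histones were also lowest in FVB/N, with 20903, 12610, 6651, 1584 and 2019 counts for Prm2 and 1145, 1025, 551, 227 and 387 for Tnp1. All 5 of these genes were lower by 1 log2 unit in both strain comparisons at matched exposure (background 18.8% under vehicle and 19.9% under exposure). In the second generation against C57.CTL.F1, 3 of 5 were (background 10.2%).

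**Figure D5:**
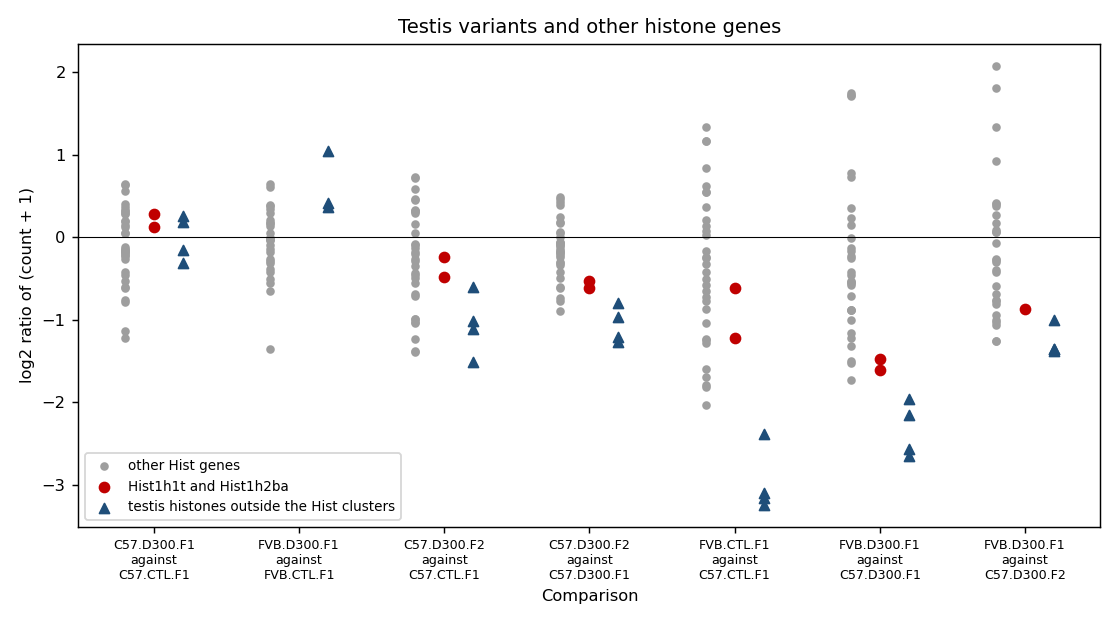
Log2 ratio of (count + 1) in each of the 7 comparisons (horizontal axis) for genes that reached 10 counts in either condition: other Hist genes in grey, Hist1h1t and Hist1h2ba in red, and testis histones outside the Hist groups as blue triangles. In FVB/N against C57BL/6J under vehicle the red points are at -1.21 and -0.62 and the triangles have a median of -3.12. Several comparisons share a condition.

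The replication-independent and replacement histones ranged less between conditions than the Hist sum, with 3493, 3182, 3056, 3266 and 2996 counts over 11 genes. H3f3b, which encodes H3.3, had 1015, 912, 1076, 1048.5 and 930 counts and H2afz, which encodes H2A.Z, 971, 787, 730.3, 933 and 869.5. H3f3a, the other H3.3 gene, had 479, 420.2, 324, 238 and 180.3 counts, and H2afy, which encodes macroH2A1, 251, 274, 289, 390.5 and 384. Of the 11 genes, 0 differed by 1 log2 unit under exposure in either strain. In FVB/N against C57BL/6J, 2 were lower under vehicle (background 18.8%) and 3 under exposure (background 19.9%).

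The genes of histone mRNA processing and of chromatin assembly were also detected. Of 21 genes for the 3′ end of histone mRNAs with at least 10 counts, 0 differed by 1 log2 unit under exposure in either strain and 0 in FVB/N against C57BL/6J under vehicle. Between the strains under exposure 1 was higher (Srrt, 1.34, background 12%). Against C57.D300.F2, of 22 genes 2 were higher in FVB.D300.F1 (Srrt, 1.14, and Fip1l1, 1.12, background 6.98%) and 1 was lower (Zfp473, -1.22, background 10.6%). Zfp473 was also the 1 gene that was higher in the second generation against C57.CTL.F1 (1.12, background 4.1%). Fip1l1 and Zfp473 were named after their values were seen. Slbp, which encodes the stem-loop binding protein, had 161, 155, 126, 158 and 119 counts. Srrt (679.7, 548, 631, 1145 and 1392), Zcchc6 (1007, 1006, 709.7, 856 and 814.5), Sympk (564, 582, 633, 764 and 711) and Upf1 (499.5, 531, 558, 700.1 and 679) had the highest mean counts of this list. Among 18 genes for histone chaperones and histone removal, 0 differed by 1 log2 unit under exposure in either strain. In FVB/N against C57BL/6J under vehicle, 1 was higher (background 7.5%) and 2 were lower (background 18.8%). Under exposure 1 was higher (background 12%) and 3 were lower (background 19.9%). Psme4, whose proteasome activator removes acetylated histones in spermatids, had 2231, 2266, 2240.4, 2459.8 and 2277 counts.

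Markers of dividing cells were present at a low level in all conditions, with 2110.3, 2283, 2345, 1806 and 1714 counts over 20 genes. Pcna had 293, 308, 264, 218 and 176 counts and Mki67 210.4, 265, 227, 162 and 135. Of the 20 genes, 0 differed by 1 log2 unit under exposure in either strain. In FVB/N against C57BL/6J, 3 were lower under vehicle (background 18.8%) and 3 under exposure (background 19.9%). The part of dividing cells in the Hist values was not tested.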

How the data were processed

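Total RNA of cauda epididymal sperm was measured in 25 libraries, 5 per condition. The authors clipped the RA3 adapter, kept reads of at least 18 bases, mapped them to mm10 with TopHat in strand-specific mode and quantified them with Cuffdiff, after base calling with CASAVA 1.8.2. The versions of TopHat and Cuffdiff and the annotation release are not given in the sources used here. What the authors deposited is a signal: each gene has 1 estimated fragment count per condition, scaled between libraries. Deposited variances served as model SDs, and 10 columns were used. The single-library values, which would allow a test, were not used here.

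Log2 ratios used a pseudocount of 1, at least 10 counts in 1 condition, and sizes of 2 and 1 log2 units. Counts of 3 or fewer were the limit of detection, which covers counting error only. Groups came from the labels. Genes were named as testis variants, as the 3 highest per class, as the 2 highest and 2 lowest ratios per comparison with at least 50 counts, as any Hist2, Hist3 or Hist4 gene, or as genes at 0, and from related lists as up to 4 with the highest counts. Others were named after their values were seen. The members, lists and comparisons were chosen with earlier results of these data known. Gene models came from GENCODE M21 and RefSeq on GRCm38, in which all 68 genes matched and 62 had a RefSeq promoter. The calling rule was tested on simulated data. Alternatives were 3 scalings, pseudocounts of 0.1 and 10, minimum counts of 100 and 0, summed counts, a size of 1 log2 unit, a difference beyond the model SD, shares without the testis variants, and, chosen after seeing the data, sums without 1 or 3 genes and genes with at least 50% unique words. Scripts ran in Python 3.11.15 (numpy 2.4.6, pandas 2.3.3, matplotlib 3.10.9).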

Additional observations from a re-analysis of the deposited data

How the results depend on the processing

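No paired analysis was possible because the table gives 1 value per condition and no replicate, and no library could be left out for the same reason. Of 235 values under alternatives, 197 moved by less than the limit of 0.25 log2 units or 1.5 times for counts, and 38 moved further; the cause was not tested. The median over the Hist genes became -0.42 with a minimum of 100 counts and -0.40 with summed counts for exposure in C57BL/6J, and -0.71 and -0.63 for C57.D300.F2 against C57.CTL.F1, where it was 0.054 with equal total counts. For FVB.CTL.F1 against C57.CTL.F1 it was -0.80 with the minimum of 100, -0.79 with summed counts and -0.11 with sums without Hist1h2bc, Hist1h4d and Hist1h4h. With sums without Hist1h2bc and without all 3 it was -0.138 and -0.038 for FVB.D300.F1 against C57.D300.F1 and 0.021 and 0.087 for FVB.D300.F1 against C57.D300.F2, where it was -0.54 with equal total counts and 0.083 with the minimum of 100.

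At 1 in place of 2 log2 units, 2, 1, 5, 13, 12 and 8 Hist genes were past the threshold for exposure in C57BL/6J, exposure in FVB/N, C57.D300.F2 against C57.CTL.F1, the strains under vehicle, the strains under exposure, and FVB.D300.F1 against C57.D300.F2. In the same order, the shares of all genes higher and lower by this size were 1.09% and 1.15%, 2.16% and 0.619%, 4.1% and 10.2%, 7.5% and 18.8%, 12% and 19.9%, and 6.98% and 10.6%. With no minimum count, the Hist genes past 2 log2 units were 1 for exposure in FVB/N, 2 and 4 for the strains under vehicle and exposure, and 2 for FVB.D300.F1 against C57.D300.F2. The share of all genes with no minimum is not given here. The single gene became 0 for the strains under vehicle with equal total counts, the upper quartile, a pseudocount of 10 or a minimum of 100, and 0 for FVB.D300.F1 against C57.D300.F2 with equal total counts or a pseudocount of 10.

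The strain difference in the effect of exposure had a median of 0.41 with the minimum of 100 and 0.40 with summed counts. Testis variants minus other Hist genes came to 0.41 with summed counts for C57.D300.F2 against C57.CTL.F1, to -0.23 with a pseudocount of 10 and -0.88 with no minimum for the strains under vehicle, to -0.43 with a pseudocount of 10 under exposure, and to -0.22 with a pseudocount of 10 and -1.05 with summed counts for FVB.D300.F1 against C57.D300.F2. Genes under 10 counts are limited by depth.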

Other observations

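Below 10 counts lay a tail of Hist genes of every core class. The H2B gene Hist1h2bf had 3.99, 4.50, 2.35, 8.76 and 6.33 counts, in the order of conditions used above, and the H3 gene Hist1h3i had 8.08, 6.08, 5.45, 2.77 and 3.70. The H2A gene Hist1h2an had 3.92, 6.29, 1.74, 0.20 and 0 counts. These genes were chosen after their values were seen, and 25.7%, 6.54% and 10.7% of their 30-base words were unique. In FVB.CTL.F1 and FVB.D300.F1 31 Hist genes were at or below 3 counts, against 21, 19 and 22 in the C57BL/6J conditions. The share of all genes at or below 3 counts is not given here, so these counts cannot be read as a trait of the Hist genes. Both first-generation C57BL/6J conditions are also the re-analysed ones.

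The annotated transcript of 18 Hist genes went on for at least 200 bases after the stem-loop, and 14 of these 18 reached 10 counts, against 11 of 27 genes whose model ended sooner after it. Per kb of exon, the median over the genes was 20.9 counts in the former and 7.76 in the latter. The 2 groups differ in exon length and in the share of unique words, and the part of these in the values was not tested.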
